A study of Homo sapiens with 24 samples.

Results

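The 45 genes described here encode proteins that take a cell through mitosis and separate its chromosomes. They were chosen by name: each is a row of the deposited count and TPM tables whose Ensembl id maps to 1 of 45 listed symbols. All 45 were found among the 37247 ids of the tables, and all 45 passed the filter on low counts, which left 14986 genes for testing. By role they are 5 genes of mitotic entry, 4 of the chromosomal passenger complex, 8 of the spindle checkpoint and the anaphase promoting complex (APC/C), 7 of the centromere and kinetochore, 8 of spindle assembly with its kinesins, 6 of the midzone and cytokinesis, and 7 of chromosome structure.

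Mitosis starts when the kinase CDK1, bound to a cyclin and freed of inhibitory phosphate by CDC25 phosphatases, drives the cell out of G2. Kinetochores built on centromeric chromatin bind spindle microtubules, the checkpoint holds back the APC/C until the chromosomes are attached, and the midzone then completes division. Most of these genes are transcribed late in the cell cycle. The MuvB core activates them in G2 together with MYBL2 (B-MYB) and FOXM1, and as part of the DREAM complex it represses them in resting cells, in part through a promoter element called the CHR. Their RNA is widely used as a measure of proliferation in tumours, breast cancer included.

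RNA was sequenced from MDA-MB-231, an established line of mesenchymal character from a human breast cancer, in 24 libraries: 4 lines in both of 2 cultures, with 3 libraries each. One line is titled control. The others overexpressed MRTF-A, a coactivator of the factor SRF that responds to actin, as the wild type (WT) or in forms that carry only the short names dSAP and dSRF in the titles. All 24 libraries, control included, are labelled with doxycycline at 1 ug/ml for 72 h. Cells grew in culture plates (2D) or on matrigel, a gel made from basement membrane (3D). The labels do not say what the control line carries, whether a line is a clone or a pool, or whether replicates were separate cultures, so p-values measure only the spread between these libraries. Groups follow the titles, since the genotype field differs from the title in 16 of 24 libraries. CPM is the count of a gene scaled to the TMM-adjusted size of its library, as edgeR gives it. Log2 fold changes are given with the standard error of an edgeR quasi-likelihood fit over all 8 groups (n = 3 per group), and "rose", "fell" and "passed" mean a Benjamini-Hochberg adjusted p under 0.05 over all genes tested.

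Library totals ran from 13968829 to 23023415 counts. MRTFA, the overexpressed gene (chromosome 22, 40410281 to 40636702, GRCh38), stood at 34.9, 38.3 and 39.1 CPM in 2D control and at 29.5, 28.8 and 29.2 in 3D control. In 2D it reached 4517, 4825 and 4878 CPM in WT, 8765, 9628 and 9030 in dSAP and 3180, 3170 and 3361 in dSRF. In 3D it reached 4492, 4444 and 4610 CPM in WT, 10630, 10170 and 10720 in dSAP and 664, 4840 and 4857 in dSRF. The library titled 3D dSRF 1 thus stands apart from the other 2 of its group. It also widens the spread that the fit assumes for every group: the median biological coefficient of variation of the 45 members was 17.6% with it and 4.04% without it, against 9.61% and 6.29% over all genes tested. Results are therefore given with all libraries and without that one.

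Promoters of several members share short elements, described here as sequence only. The RefSeq promoter table (GRCh38.p14) matched 38 of the 45 members with 47 windows of 300 bases, from 250 before to 50 after a start site. AURKA, BIRC5, BUB3, FOXM1, TPX2, TTK and UBE2C were not matched. The core of the CHR, searched as TTTGAA on both strands, was found in 33 of 47 member windows (70.2%), against 15.2% of all windows and 10.7% of those of tested genes (35116 and 15769 windows). The CCAAT box, searched as CCAAT on both strands, was found in 32 of 47 member windows (68.1%), against 34.6% of all windows and 34.5% of those of tested genes. Both were in 25 of 47 member windows (53.2%), against 5.90% of all windows and 4.20% of those of tested genes. A match is only these letters in this window, and binding was not measured. The 130 bases before the start of 5 members are printed 5′ to 3′ on the strand of the gene, with both motifs in capitals. KIF11 (chr10:92593000-92593129, plus strand), the motor that keeps spindles bipolar, and MKI67 (chr10:128126424-128126553, minus strand), which encodes the proliferation antigen Ki-67, carry both motifs upstream. CENPF (chr1:214603065-214603194, plus strand), a kinetochore protein, and KIF14 (chr1:200620752-200620881, minus strand), a kinesin of cytokinesis, carry CCAAT upstream and TTTGAA only past the start. NCAPH (chr2:96335636-96335765, plus strand), a condensin subunit, carries CCAAT and no TTTGAA.
KIF11: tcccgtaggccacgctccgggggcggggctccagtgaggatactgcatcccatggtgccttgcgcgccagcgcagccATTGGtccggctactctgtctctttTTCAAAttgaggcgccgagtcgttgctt
MKI67: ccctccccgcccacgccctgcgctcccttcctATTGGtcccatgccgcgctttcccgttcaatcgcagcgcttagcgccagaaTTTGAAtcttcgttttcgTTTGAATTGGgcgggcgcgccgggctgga
CENPF: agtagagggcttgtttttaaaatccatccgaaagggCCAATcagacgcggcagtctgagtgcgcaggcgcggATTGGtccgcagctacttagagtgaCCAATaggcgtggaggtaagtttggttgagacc
KIF14: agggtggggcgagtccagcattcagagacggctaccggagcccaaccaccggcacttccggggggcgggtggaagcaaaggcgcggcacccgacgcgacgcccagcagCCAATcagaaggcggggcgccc
NCAPH: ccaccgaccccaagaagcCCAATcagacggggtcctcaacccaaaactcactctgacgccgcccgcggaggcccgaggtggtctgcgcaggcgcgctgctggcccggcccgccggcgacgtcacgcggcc
With the start site counted as 0, KIF11 has the reverse of TTTGAA at -28 and the reverse of CCAAT at -53. MKI67 has TTTGAA at -47 and -29 and the reverse of CCAAT at -98 and -24, and the last of each pair share 1 base. CENPF has CCAAT at -94 and -33 and its reverse at -58, KIF14 has CCAAT at -22, and NCAPH has CCAAT at -112. All 5 genes fell in 2D dSRF against control, KIF11 by 1.71 on the log2 scale, MKI67 by 1.88, CENPF by 1.20, KIF14 by 1.45 and NCAPH by 1.38. Any link between these motifs and the falls was not tested.

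In 2D, all 45 members fell in the dSRF line against control, where 31.5% of all genes tested were called lower and 34.5% higher. The median log2 fold change of the members was -1.49, against 0.02 over all genes tested. It ran from -2.11 for DLGAP5, a spindle assembly factor, to -0.30 for BUB3, a checkpoint protein, and the median member stood at 35.6% of its control mean. In bulk RNA, fewer cycling cells and less of these RNAs per cell cannot be told apart. Summed over the members, the level was 8401, 8488 and 8930 CPM in 2D control and 3057, 3190 and 3391 in 2D dSRF. For each of the 45 genes the 3 dSRF libraries lay below the 3 control libraries (74.2% of all genes did not overlap, in either direction). Against the WT line 44 members fell, where 30.4% of genes were called lower and 33.6% higher, with a median of -1.09. The exception was BUB3, at -0.13 ± 0.08 (adjusted p = 0.153), which passed without the library titled 3D dSRF 1 (adjusted p = 0.00745).

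Markers of other cells differed in the same libraries. Mesenchymal markers of the line (5 genes) summed to 3666 to 5267 TPM over all libraries, but single markers moved both ways. Between 2D control and 2D dSRF, mean TPM was lower in dSRF for AXL (794.8 and 401.6), CAV1 (891.3 and 671.4) and VIM (1814 and 1605). It was higher for CD44 (688.3 and 1044) and MSN (259.5 and 273.8). In 3D, AXL (527.4 and 417.7) and VIM (2195 and 1888) were lower. CAV1 (514.2 and 592), CD44 (1262 and 1436) and MSN (230.2 and 365.3) were higher there. Luminal and receptor markers (5 genes) summed to 178 to 199 TPM in 2D dSRF and 121 to 274 in 3D dSRF, against 38.1 to 87.5 elsewhere. Most of that was EPCAM, while ESR1 was at or near 0 and PGR at 0 in 2D dSRF. GATA3 went the other way, with means of 33.25 TPM in 2D control and 12.9 in 2D dSRF. In 3D its means were 21.85 and 11.8 TPM. CDH1 was low throughout, with means of 0.654 and 0.427 TPM in 2D control and 2D dSRF. Leukocyte markers (5 genes) summed to 188 to 212 and 138 to 198 TPM in dSRF against 35.1 to 60.4 elsewhere, mostly CD68, with PTPRC at 0 in 2D dSRF. CD14 was lower in dSRF, with means of 16.45 TPM in 2D control and 5.365 in 2D dSRF, and 7.31 and 4.47 in 3D. Endothelial markers (4 genes) summed to 7.06 to 12.2 TPM in dSRF and 0.436 to 2.52 elsewhere, and fibroblast markers (5 genes) to 16.2 to 116 and 15.5 to 89.6, with DCN at 0 in dSRF. In 2D, COL1A1 had a higher mean in dSRF than in control (31.93 and 8.707 TPM). COL1A2 (1.794 and 6.646) and LUM (1.291 and 2.974) had lower means there. Mitochondrial genes held 0.448 to 0.851% of counts in 3D dSRF and 0.940 to 1.45% in 3D control. In 2D the ranges overlapped, at 0.4881 to 0.9335% in dSRF and 0.3976 to 0.8903% in control. The part of these shifts in the fall of the mitotic genes was not tested.

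**Figure D1:**
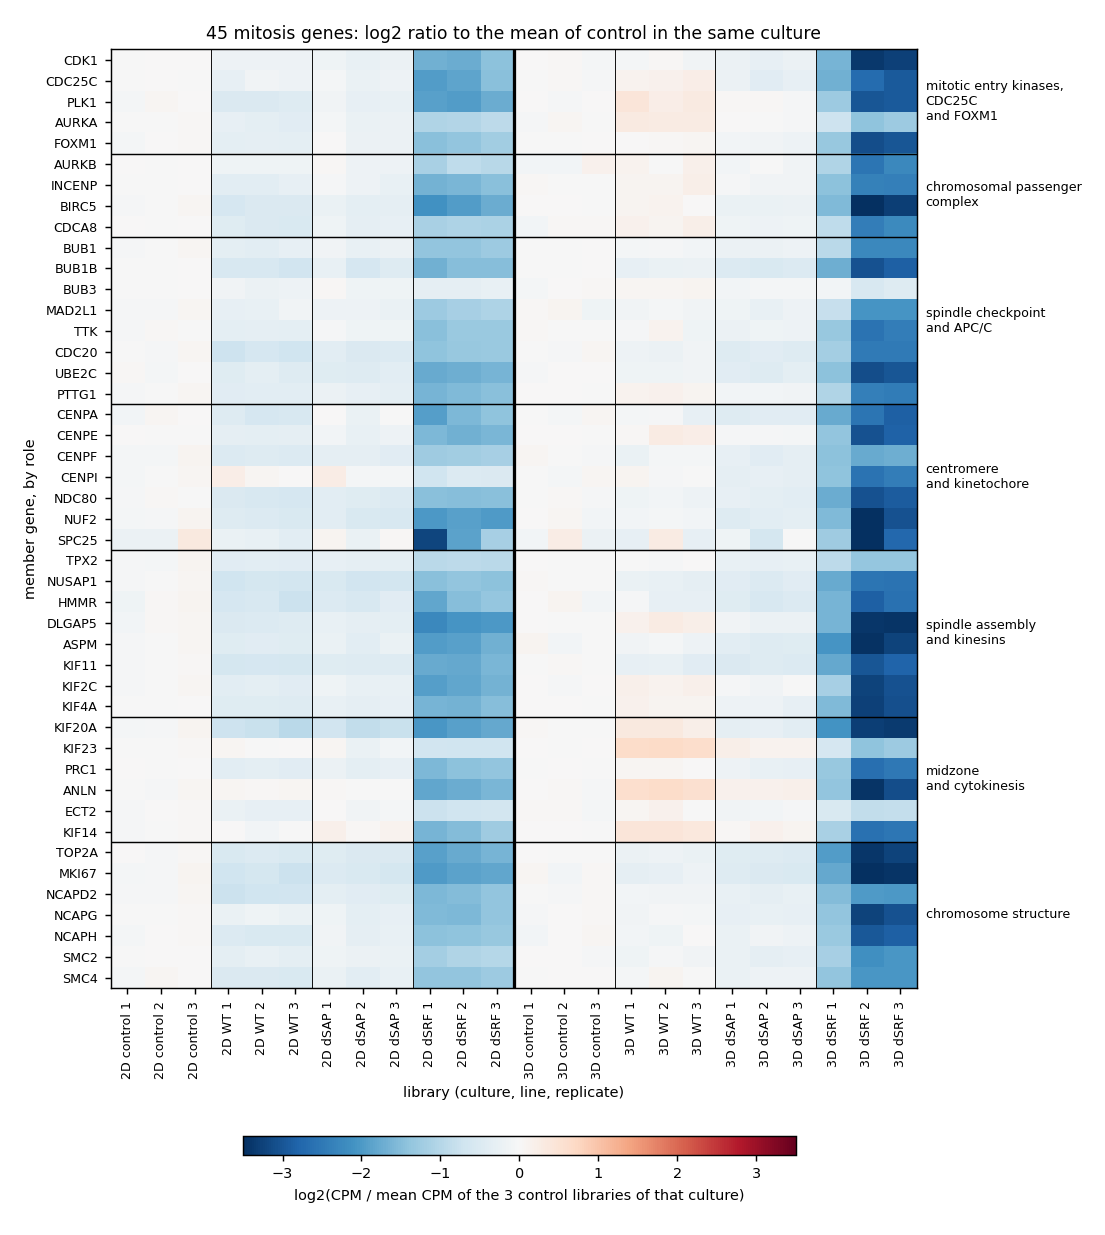
Colour gives the log2 ratio of CPM in each of the 24 libraries (columns) to the mean of the 3 control libraries of the same culture, for the 45 members (rows, by role); the colour scale saturates at its ends. The dSRF columns are low in both cultures and lowest in 3D dSRF 2 and 3, and BUB3 is the least changed row there.

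Among the mitotic entry genes, CDK1 stood at 172, 173 and 174 CPM in 2D control and 54.3, 52.4 and 64.5 in 2D dSRF. AURKA, the centrosomal kinase Aurora A (chromosome 20, 56369389 to 56392337), stood at 164, 165 and 170.2 CPM in control and 79.8, 81.3 and 88.6 in dSRF, a change of -0.999 ± 0.11 (adjusted p = 8.35e-08). It fell least of the 5. PLK1, a kinase of spindle poles and kinetochores, fell to 27.4% of control, and the transcription factor FOXM1 changed by -1.35.

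All 4 genes of the passenger complex, which corrects faulty attachments at the centromere, fell in 2D dSRF. INCENP, its scaffold (chromosome 11, 62123973 to 62153163), stood at 128, 128 and 128 CPM in control and 40.6, 42.1 and 46.3 in dSRF, a change of -1.57 ± 0.16 (adjusted p = 4.69e-08). BIRC5, which encodes survivin, fell furthest (-1.92). The kinase gene AURKB (-0.996) and CDCA8, which encodes borealin (-1.10), fell less.

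The checkpoint and APC/C genes were uneven. BUB1B, the checkpoint protein BubR1 (chromosome 15, 40161023 to 40221136), stood at 77.6, 77.2 and 78.6 CPM in control and 24.1, 27.5 and 27.5 in dSRF, a change of -1.56 ± 0.20 (adjusted p = 1.49e-06). UBE2C, a ubiquitin-conjugating enzyme of the APC/C, changed by -1.71 and PTTG1, or securin, the inhibitor of separase, by -1.55. PTTG1 has close copies in the genome, so its reads may have been split. BUB3 (chromosome 10, 123154277 to 123170467) stood at 169.5, 168 and 172 CPM in control and 136, 137 and 142 in dSRF (-0.30 ± 0.08, adjusted p = 0.00251). Its groups did not overlap, but at 81.3% of control it held the highest share of the 45.

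In the centromere and kinetochore role, CENPF (chromosome 1, 214603195 to 214664588) stood at 614, 615 and 688 CPM in control and 272, 276 and 284 in dSRF, a change of -1.20 ± 0.07 (adjusted p = 2.09e-11). NUF2, a subunit of the NDC80 complex that binds microtubules, fell furthest (-1.97). SPC25, another subunit, had the largest standard error of the 45, with 14.9, 15.1 and 21.97 CPM in control, 1.88, 4.75 and 7.76 in dSRF and a change of -1.82 ± 0.51. CENPI, of the inner kinetochore, stood at 33.1, 34.2 and 36.4 CPM in control and 21.2, 24.8 and 24.6 in dSRF. At -0.56 it was the least changed member after BUB3.

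Spindle genes had a median of -1.65 in 2D dSRF. TPX2, which activates Aurora A on the spindle (chromosome 20, 31739271 to 31801805), stood at 374, 366 and 412 CPM in control and 199, 204 and 200 in dSRF, a change of -0.94 ± 0.08 (adjusted p = 2.57e-09). DLGAP5 stood at 182, 199 and 203 CPM in control and 40.4, 46.2 and 48.5 in dSRF (-2.11 ± 0.28, adjusted p = 2.74e-06). TPX2 thus fell least of its role and DLGAP5 most, while ASPM, which organises spindle poles, changed by -1.84 and KIF2C, a microtubule depolymerase, by -1.79.

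Midzone and cytokinesis genes were split. KIF20A, a kinesin of the midzone, fell to 26.6% of control, while KIF23, a subunit of centralspindlin, and ECT2, the exchange factor that positions the cleavage furrow, held 62.3% and 62.0%. ECT2 (chromosome 3, 172750682 to 172821474) stood at 192, 199 and 206 CPM in control and 119, 124 and 127 in dSRF, a change of -0.69 ± 0.07 (adjusted p = 3.36e-08). Of the chromosome structure genes, NCAPD2, a condensin subunit (chromosome 12, 6493356 to 6531955), stood at 269.7, 273 and 295 CPM in control and 94.3, 97.7 and 106 in dSRF, a change of -1.49 ± 0.09 (adjusted p = 3.10e-11). MKI67 stood at 578, 594 and 648 CPM against 155, 166 and 174, and TOP2A, the enzyme that untangles sister DNA, at 687, 666 and 702 against 184, 203 and 221. SMC2, a condensin core subunit, held the highest share of that role, at 47.2%.

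**Figure D2:**
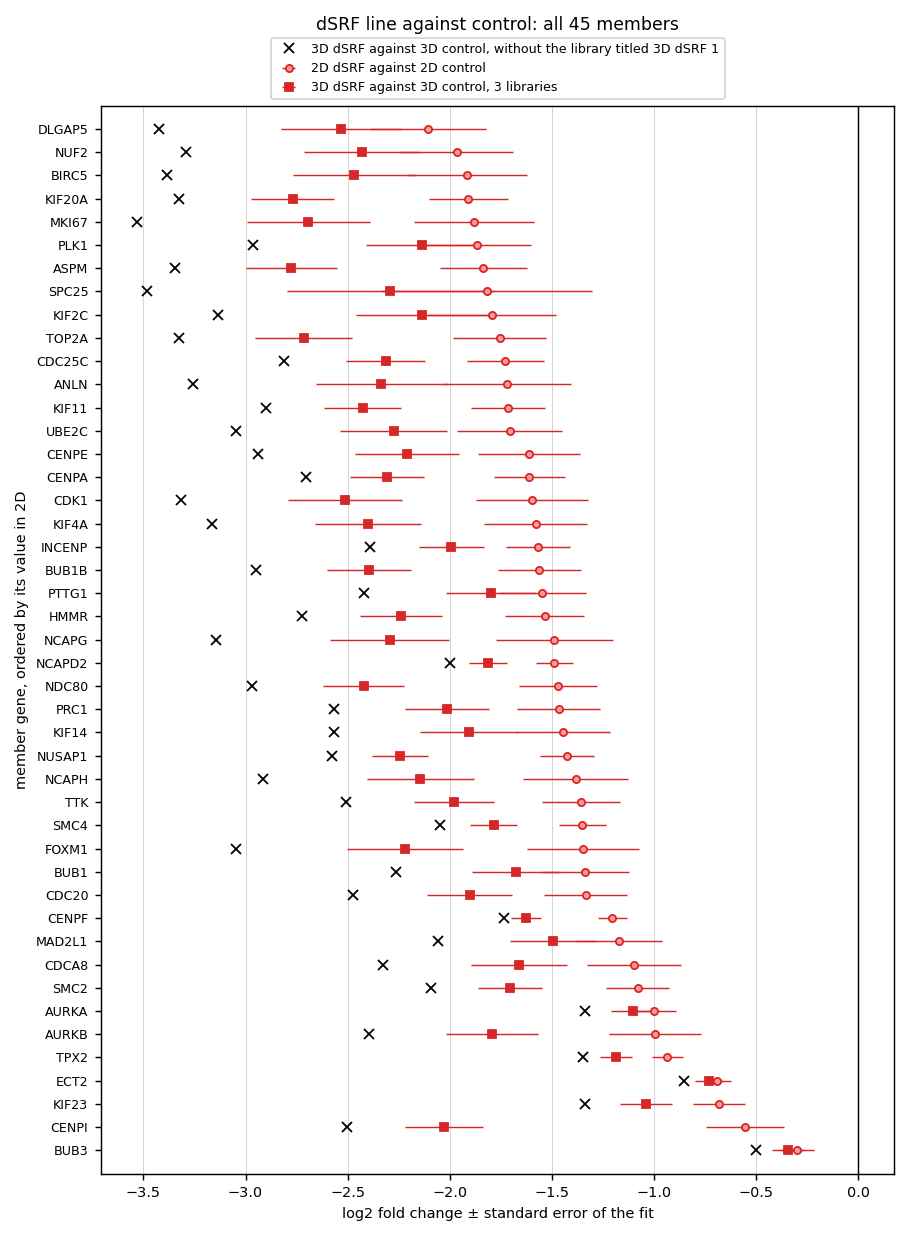
Log2 fold change of dSRF against control for each of the 45 members, in 2D and in 3D with the standard error of the fit as bars (n = 3 libraries per group), and in 3D without the library titled 3D dSRF 1. For all 45 genes the value in 3D lies below that in 2D, and it is lower again without that library. BUB3 lies nearest to 0.

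In 3D, all 45 members fell in dSRF against control, where 31.3% of genes were called lower and 35.1% higher, and all 45 fell against WT, where 31.6% were lower and 34.2% higher. The medians were -2.15 and -2.13, and against control the range was from -2.78 for ASPM to -0.35 for BUB3. These group values rest on unlike libraries. The members summed to 8428, 8337 and 8314 CPM in 3D control and to 3226, 1500 and 1603 in 3D dSRF 1, 2 and 3. All 45 genes were higher in library 1 than in both others, with a median ratio of 2.42 to their mean, from 1.23 for CENPF to 4.82 for SPC25. The median member stood at 38.3% of 3D control in library 1, 15.5% in library 2 and 14.8% in library 3. Set beside the 2D dSRF libraries, library 1 lay within their range for 14 members, above it for 17 and below it for 14. For 44 members, all but BUB3, the 6 dSRF libraries lay below the 18 others. Libraries 2 and 3 of 3D dSRF lay below the 22 others for 44 members, all but SPC25. The share of all genes tested with these orders of libraries, or with a higher level in library 1, was not counted. The counts are therefore a description of the members only. Without library 1 all 45 members still passed against control (35.6% of genes lower) and all 45 against WT (36.3%), with medians of -2.73 and -2.62.

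Library by library, CDK1 stood at 226, 230 and 212 CPM in 3D control and 71.4, 21.5 and 23.2 in 3D dSRF 1, 2 and 3. CDC25C, the phosphatase that activates CDK1 (chromosome 5, 138285265 to 138338355), stood at 19.6, 20.4 and 19.0 CPM in control and 6.10, 3.04 and 2.56 in dSRF, a change of -2.31 ± 0.19 (adjusted p = 2.68e-09), or -2.81 without library 1. The entry genes had medians of 39.6%, 12.5% and 13.04% of control in libraries 1, 2 and 3, with AURKA highest in each, at 60.1%, 38.0% and 41.1%. INCENP stood at 125, 120 and 119 CPM in control and 44.6, 23.4 and 22.9 in dSRF, a change of -1.99 ± 0.16 (adjusted p = 1.60e-09), or -2.39 without library 1. Passenger genes had medians of 42.3%, 17.9% and 19.9%, with BIRC5 lowest in each library.

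The checkpoint gene BUB1B stood at 90.5, 90.1 and 91.5 CPM in 3D control and 27.8, 11 and 12.5 in dSRF, a change of -2.40 ± 0.21 (adjusted p = 5.28e-09), or -2.95 without library 1. BUB3 stood at 159, 169.9 and 172 CPM in control and 157, 114 and 122 in dSRF, a change of -0.35 ± 0.08 (adjusted p = 0.000670), or -0.50 without library 1. Library 1 thus lay just under the lowest control library for BUB3, and the other 2 well below. CENPF stood at 535, 501 and 495 CPM in control and 189, 150.1 and 157 in dSRF, a change of -1.63 ± 0.07 (adjusted p = 2.25e-13), or -1.74 without library 1. SPC25 was the most uneven, with 21.98, 28.4 and 20.5 CPM in control and 9.97, 0.641 and 3.501 in dSRF. The kinetochore role had medians of 37.0%, 12.2% and 14.03% of control in libraries 1, 2 and 3 and the checkpoint role 45.8%, 18.5% and 18.5%.

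NUSAP1, which bundles spindle microtubules (chromosome 15, 41332694 to 41381050), stood at 203, 196 and 198 CPM in 3D control and 58.8, 33.8 and 33.1 in dSRF, a change of -2.24 ± 0.14 (adjusted p = 3.28e-11), or -2.58 without library 1. ASPM stood at 292, 258 and 272 CPM in control and 65.5, 25.0 and 29.04 in dSRF, or 23.9%, 9.11% and 10.6% of control. Spindle genes had the lowest medians of the 7 roles in libraries 1 and 2, at 32.5%, 11.5% and 13.3% over the 3 libraries. KIF20A (chromosome 5, 138178719 to 138187715) stood at 92.0, 89.2 and 88.2 CPM in control and 21.1, 9.08 and 8.88 in dSRF, a change of -2.77 ± 0.20 (adjusted p = 5.28e-10), or -3.32 without library 1. ECT2 held the highest share of the midzone role, at 69.5%, 54.9% and 56.1%. NCAPD2 stood at 257, 249 and 268 CPM in control and 90.9, 65.5 and 63.9 in dSRF, a change of -1.81 ± 0.09 (adjusted p = 1.48e-12), or -2.00 without library 1. MKI67 stood at 702, 633 and 689.5 CPM in control and 196, 54.8 and 62.2 in dSRF, and without library 1 its change of -3.53 was the largest of the 45. Over the 45 genes the changes in 2D and 3D went together (r = 0.854, a description over genes measured in the same libraries).

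**Figure D3:**
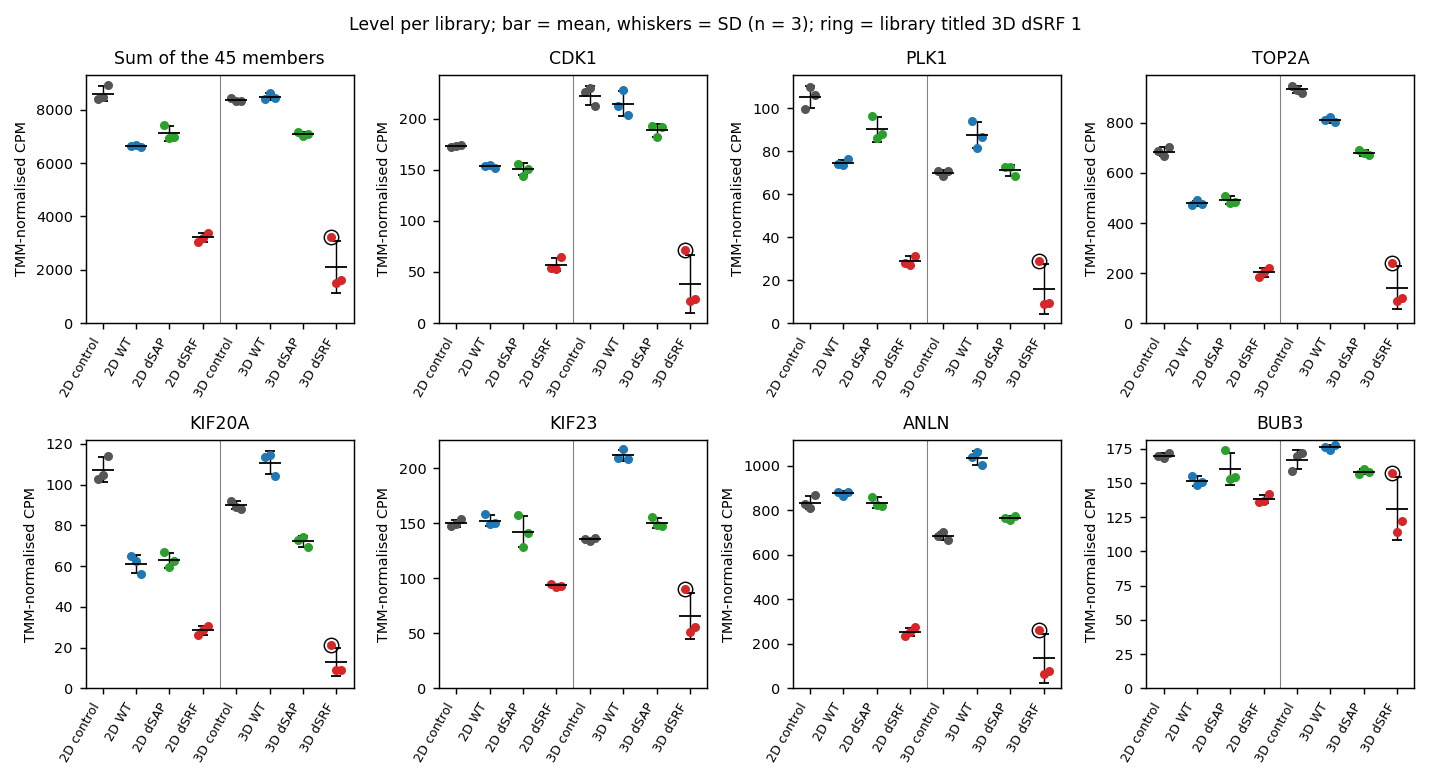
CPM in each library (points) for the sum of the 45 members and for CDK1, PLK1, TOP2A, KIF20A, KIF23, ANLN and BUB3, with the mean and SD of the 3 libraries of each group. The ringed point, the library titled 3D dSRF 1, lies above the other 2 of its group in every panel.

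The WT line differed from control in 2D and less in 3D. In 2D, 14 of 45 members fell and none rose, where 19.2% of genes tested were called lower and 20.1% higher. The median was -0.39, against -0.02 over all genes tested. Without 3D dSRF 1, 38 members fell (26.6% of genes lower). For 41 members the 3 WT libraries lay below the 3 control libraries (58.7% of all genes did not overlap, in either direction). KIF20A had the largest change, with 103, 105 and 114 CPM in control and 64.8, 62.6 and 56.3 in WT (-0.81 ± 0.19, adjusted p = 0.00168). NCAPD2 stood at 166, 171 and 176 CPM in WT (-0.71 ± 0.09, adjusted p = 2.48e-06). CDC20, the activator of the APC/C (chromosome 1, 43358955 to 43363203), stood at 149, 148 and 158 CPM in control and 92.3, 102 and 93.4 in WT (-0.66 ± 0.20, adjusted p = 0.0125). The groups of these 3 genes did not overlap. CENPF changed by -0.48 ± 0.07 (adjusted p = 1.80e-05), TPX2 by -0.39 ± 0.08 (adjusted p = 0.000404) and AURKA by -0.33 ± 0.10 (adjusted p = 0.0143). None of the 4 passenger genes passed with all libraries, and 3 fell without 3D dSRF 1: BIRC5 (-0.53), CDCA8 (-0.49) and INCENP (-0.34). The cytokinesis genes ANLN, a scaffold of the furrow, KIF23 and KIF14 were near control, at 0.07, 0.02 and -0.03, and passed neither with nor without 3D dSRF 1.

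In 3D WT the median was -0.01 against control, and 2 of 45 members rose and none fell, where 18% of genes were called higher and 17% lower. The member counts were below those shares. KIF23 (chromosome 15, 69414246 to 69448427) stood at 136, 134 and 136 CPM in control and 209.8, 217 and 208 in WT (0.65 ± 0.13, adjusted p = 0.000448). AURKA stood at 109, 119 and 111 CPM in control and 140.1, 138 and 137 in WT (0.29 ± 0.10, adjusted p = 0.0364). The groups did not overlap for either gene, and leaving out 3D control 1 or 3 or any 3D WT library left 1 call. ANLN stood at 685, 700.2 and 668 CPM in control and 1037, 1062 and 1002 in WT, a change of 0.60 ± 0.30 (adjusted p = 0.145) with all libraries and 0.60 ± 0.05 without 3D dSRF 1 (adjusted p = 3.43e-10). Without that library 13 members rose (28.9%) and 11 fell (24.4%), where 23.8% of genes were called higher and 24.3% lower. The member shares were thus near those of all genes. KIF23, ANLN, KIF14 and PLK1 then led the rises, at 0.65, 0.60, 0.41 and 0.32, and KIF11, NUSAP1 and MKI67 the falls, at -0.32, -0.28 and -0.26.

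The difference between the WT effects in 3D and 2D was tested as an interaction. Its median was 0.40, against 0.01 over all genes tested, and it was above 0 for 44 of 45 members. The share of all genes above 0 is not given here. In this test 8 members passed, all higher, where 4.22% of genes were called higher and 4.96% lower. KIF20A had the largest, 1.11 ± 0.26 (adjusted p = 0.00970): it was lower in WT than in control in 2D, while in 3D it stood at 92.0, 89.2 and 88.2 CPM in control and 114, 115 and 104 in WT. NCAPD2 had 0.59 ± 0.12 (adjusted p = 0.00424), AURKA 0.62 ± 0.15 (adjusted p = 0.00985), CENPF 0.36 ± 0.10 (adjusted p = 0.0274) and TPX2 0.37 ± 0.11 (adjusted p = 0.0341). KIF23 (0.62), ECT2 (0.33) and SMC4 (0.52) passed too. Without 3D dSRF 1, 39 members passed (12.7% of genes higher), and without any 1 library of the 4 groups compared 3 to 5 did.

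The dSAP line had medians between those of control and dSRF. In 2D, 5 members fell against control and none rose (15.4% of genes lower, 17.5% higher). Neither count exceeded the share of all genes. The median of the members was -0.25, against -0.01 over all genes tested. KIF20A stood at 66.8, 59.4 and 62.5 CPM in dSAP (-0.77 ± 0.18, adjusted p = 0.00315). NUSAP1 stood at 178, 182 and 194 CPM in control and 128, 116 and 119 in dSAP (-0.61 ± 0.13, adjusted p = 0.00127). Both genes lay below control in every dSAP library. NCAPD2 (-0.39 ± 0.09, adjusted p = 0.00184), CENPF (-0.34 ± 0.07, adjusted p = 0.000886) and TPX2 (-0.32) were the others. Without 3D dSRF 1, 33 members fell (23.3%). Against 2D WT, 1 member rose, below the share of all genes (5.09% higher, 7.71% lower): NCAPD2, from 166, 171 and 176 CPM to 222, 210.2 and 207 (0.32 ± 0.09, adjusted p = 0.0219). That call was lost without 2D WT 1, 2D WT 2 or 2D dSAP 1, and without 3D dSRF 1, 23 members rose (12.7%).

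In 3D dSAP, 5 members fell against control and none rose (13.1% of genes lower, 16.5% higher). Here too the counts were below those shares. The median of the members was -0.24, against 0.002 over all genes tested. CENPF stood at 419, 384 and 407 CPM in dSAP (-0.34 ± 0.07, adjusted p = 0.000957), below every 3D control library. TPX2 changed by -0.27 ± 0.08 (adjusted p = 0.0112), NCAPD2 by -0.28 ± 0.09 (adjusted p = 0.0212), NUSAP1 by -0.43 and KIF11 by -0.48. Without 3D control 1 or 3 or 3D dSAP 2 or 3 the count was 2 or 3, and without 3D dSRF 1 it was 2 higher and 32 lower (20.7% of genes lower). All 45 members were lower in 3D dSAP than in 3D WT, with a median of -0.24, against 0.02 over all genes tested. The share of all genes below 0 is not given here. Of the members 4 passed, near the share of all genes (6.63% lower, 5.45% higher). These were KIF20A (-0.62), KIF23 (-0.49 ± 0.13, adjusted p = 0.0130), TPX2 (-0.25 ± 0.08, adjusted p = 0.0343) and CENPF (-0.22 ± 0.07, adjusted p = 0.0475). KIF23 stood at 156, 148 and 148 CPM in dSAP, between control and WT. Without any 1 library of 3D WT or 3D dSAP at most 2 passed, and without 3D dSRF 1, 41 did (14.1%). The dSAP effect differed between cultures for 0 members by edgeR (0 at an unadjusted p under 0.05), where 2.34% of genes were called (1.13% higher, 1.2% lower). By DESeq2 it also differed for 0 members, with 599 of 12644 genes called. Without 3D dSRF 1 it differed for 5 members (11.1%), near the 11.4% of all genes.

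**Figure D4:**
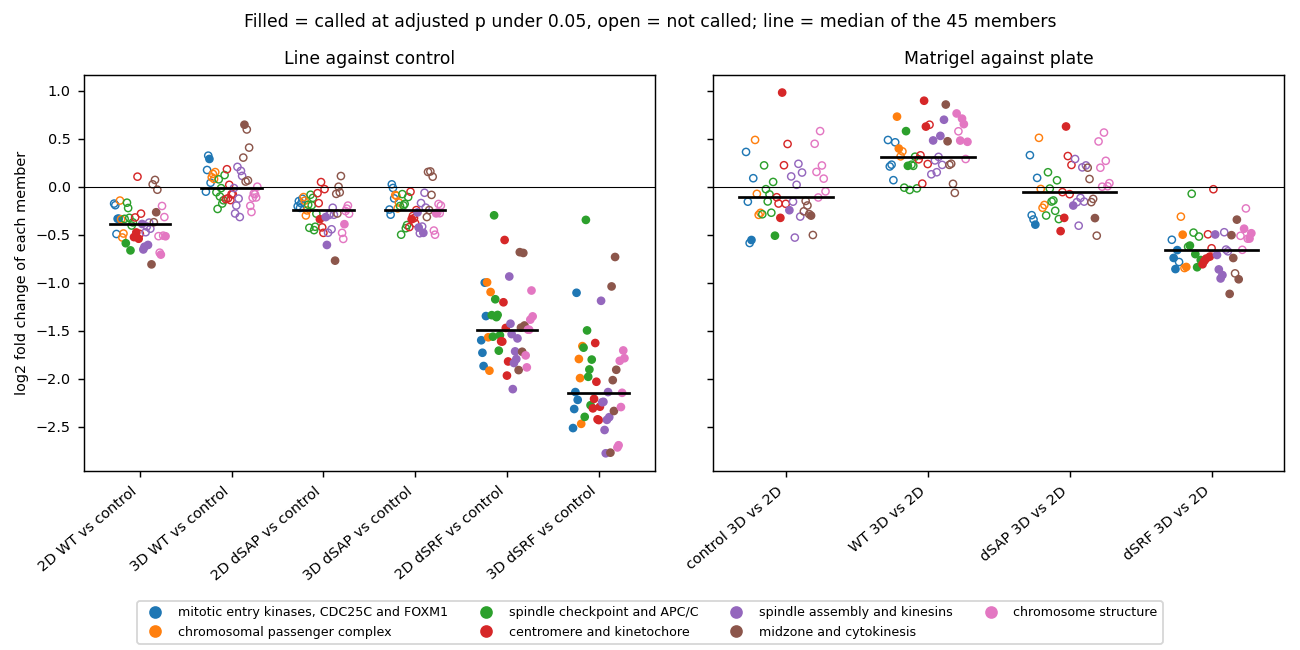
Log2 fold change of each of the 45 members for each line against control in 2D and 3D (left) and for 3D against 2D within each line (right), with filled points at an adjusted p under 0.05 and lines at the medians. The medians run from -0.01 in 3D WT to -2.15 in 3D dSRF on the left, and from -0.66 in dSRF to 0.31 in WT on the right.

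Matrigel was compared with plates within each line. In control, 1 member rose and 5 fell, where 23% of genes were called higher and 24.4% lower. Both member counts were below those shares. CENPI (chromosome X, 101098218 to 101163681) rose, from 33.1, 34.2 and 36.4 CPM to 67.8, 65.6 and 71.1 (0.98 ± 0.18, adjusted p = 0.000211). AURKA (-0.56 ± 0.10, adjusted p = 0.000199), ECT2 (-0.30 ± 0.07, adjusted p = 0.00108), TPX2 (-0.24 ± 0.08, adjusted p = 0.0123), PTTG1 (-0.51 ± 0.21, adjusted p = 0.0484) and CENPF (-0.32) fell. Without 3D dSRF 1, 12 rose (26.7%) and 21 fell (46.7%), where 28.8% of genes were called higher and 29.9% lower. The rises were near the share of all genes. On log2(TPM + 1) the balance turned, with 5 higher and 2 lower, where 6008 of 14986 genes were called, 3735 of them higher. The median was -0.11 on the counts and 0.06 on that scale, so no direction is given for the 45 as a whole.

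In WT, 16 members rose on matrigel and none fell, with a median of 0.31, where 24.4% of genes were called higher and 25.7% lower. CENPI stood at 40.5, 36.1 and 34.9 CPM in 2D and 72.9, 66.7 and 67.6 in 3D (0.89 ± 0.18, adjusted p = 0.000480), and AURKB, the kinase of the passenger complex, at 48.4, 48.4 and 48.1 and 81.8, 73.8 and 84.3 (0.73 ± 0.22, adjusted p = 0.00937). The cultures did not overlap for either gene. KIF20A (0.85 ± 0.19, adjusted p = 0.000791), BUB1B (0.58 ± 0.19, adjusted p = 0.0184), NCAPD2 (0.48 ± 0.09, adjusted p = 0.000162) and NUSAP1 (0.48 ± 0.13, adjusted p = 0.00470) rose too. By role 5 of 7 chromosome structure genes and 0 of 5 mitotic entry genes rose with all libraries, and 7 of 7 and 4 of 5 without 3D dSRF 1. Without 2D WT 1 or 2D WT 3 it was 10 or 9 in all, and without 3D dSRF 1 it was 37 (29.9% of genes higher). In dSAP, 1 rose (CENPI, 0.63) and 5 fell, again below the shares of all genes (24.2% called higher and 23.5% lower). The falls were CENPA, the centromeric histone variant (-0.46), AURKA (-0.40 ± 0.10, adjusted p = 0.00395), ECT2 (-0.33 ± 0.07, adjusted p = 0.000535), CENPF (-0.32 ± 0.07, adjusted p = 0.000801) and TPX2 (-0.20 ± 0.08, adjusted p = 0.0404). Here too log2(TPM + 1) turned the balance, to 7 higher and 3 lower, where 6157 of 14986 genes were called, 3941 of them higher. Without 3D dSRF 1, 13 members rose and 19 fell (28.9% and 42.2%). Of all genes 29.9% were then called higher and 29.3% lower, so the rises were near the share of all genes.

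In dSRF, 26 members fell on matrigel and none rose, with a median of -0.66, where 9.84% of genes were called lower and 7.19% higher. KIF20A changed by -1.12 ± 0.20 (adjusted p = 0.000907), CENPF by -0.75 ± 0.07 (adjusted p = 1.20e-06), AURKA by -0.66 ± 0.11 (adjusted p = 0.000280), TPX2 by -0.50 ± 0.08 (adjusted p = 0.000193) and NCAPD2 by -0.44 ± 0.09 (adjusted p = 0.00226). CDC20 (-0.84 ± 0.21, adjusted p = 0.00900) and CDCA8 (-0.84 ± 0.24, adjusted p = 0.0202) fell as well. The count rests on the spread assumed and on single libraries. On the 6 dSRF libraries alone 0 members passed by edgeR (8 at an unadjusted p under 0.05), as did 0 of all 14117 genes tested there. With all libraries 33 members passed by DESeq2 (2803 of 13803 genes). Without 2D dSRF 2, 2D dSRF 3, 3D dSRF 2 or 3D dSRF 3 the member count was 17, 13, 12 and 12. Without 3D dSRF 1 it was 44, all but SPC25, with a median of -1.25 (28.4% of genes lower).

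The dSRF effect differed between cultures for 12 members, all more negative in 3D, where 14.6% of genes were called lower and 14.7% higher, with a median of -0.57. CENPI had the largest difference, -1.48 ± 0.27 (adjusted p = 0.000339), with 67.8, 65.6 and 71.1 CPM in 3D control and 25.7, 11.32 and 12.7 in 3D dSRF. TOP2A (chromosome 17, 40388516 to 40417950) had -0.96 ± 0.32 (adjusted p = 0.0289), with 949, 933 and 919 CPM in 3D control and 239.8, 87.9 and 98.4 in 3D dSRF. Both were above their 2D level in 3D control, and lower in 3D dSRF 2 and 3 than in any 2D dSRF library. KIF20A (-0.86 ± 0.27, adjusted p = 0.0233), BUB1B (-0.83 ± 0.28, adjusted p = 0.0324) and NUSAP1 (-0.82 ± 0.19, adjusted p = 0.00255) passed as well. On the libraries of these 4 groups alone 2 members passed (2642 of 14637 genes). Without a single 2D or 3D control library or 2D dSRF 2 or 3 or 3D dSRF 2 or 3 between 4 and 7 members passed. Without 3D dSRF 1 all 45 did, with a median of -1.19 (24% of genes lower).

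Other genes of these processes were read from lists. In 2D dSRF against control, 31.5% of all genes tested were called lower and 34.5% higher. In 2D dSRF, 15 of 17 cyclins and entry regulators fell (median -0.94), among them the mitotic cyclins CCNB1 (-1.01 ± 0.09) and CCNB2 (-1.28 ± 0.14). Of the further spindle and cytokinesis genes 19 of 21 fell (median -1.32), led by CKAP2 (-1.21 ± 0.05) and TACC3 (-1.17), which stabilise spindle microtubules. Of the further kinetochore genes 26 of 31 fell and 1 rose (median -0.68). SGO2, which protects centromeric cohesin (-1.27 ± 0.10), fell, and MIS12, of the outer kinetochore (1.04 ± 0.10), rose. Of the further condensin and cohesin genes 11 of 14 fell and 1 rose (median -0.60), with ESPL1, or separase, at -1.41 ± 0.12. APC/C subunits had 4 higher and 9 of 17 lower (median -0.17), with CDC27 at -0.92.

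Upstream regulators moved both ways in 2D dSRF, where 31.5% of all genes tested were called lower and 34.5% higher. Of the DREAM, MuvB and E2F regulators 4 rose and 13 of 20 fell in 2D dSRF (median -0.41). TFDP2, a partner of E2F factors, fell (-0.82), and E2F5, a repressor E2F (0.91 ± 0.07), and CDKN1A, the CDK inhibitor p21 (1.11 ± 0.11), rose. Of the G1/S and replication genes 31 of 39 fell and 2 rose (median -0.78), with LIG1, a DNA ligase of replication, at -0.92. All 23 of the 23 replication-dependent histone genes that were tested fell (median -2.18), though these are near copies among which reads may be split. Further listed histone genes were not tested. Ribosomal protein genes, outside the cell cycle lists, had 28 of 29 lower (median -0.47) and mitochondrial genes 1 of 13. SKA1, KIFC1, RPS18, H3C2 and H3C3 were among the listed genes not analysed here.

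In 3D dSRF against control, 31.3% of all genes tested were called lower and 35.1% higher (35.6% and 37.2% without 3D dSRF 1). All 17 of 17 cyclins and entry regulators fell (median -1.02, or -1.82 without 3D dSRF 1), with GTSE1 at -2.41. Kinetochore genes had 29 of 31 lower and 1 higher (median -1.51, or -1.95), and spindle genes 19 of 21 lower and 1 higher (median -1.84, or -2.17), with the spindle kinesin KIF15 at -2.80 ± 0.19. Condensin and cohesin genes had 11 of 14 lower and 1 higher (median -1.08, or -1.09), with NCAPD3, of condensin II, at -1.59 ± 0.05. APC/C subunits had 13 of 17 lower and 1 higher (median -0.30). The DREAM and E2F list had 15 of 20 lower and 3 higher (median -0.65), with E2F2, an activator E2F, at -3.03 ± 0.20, LIN54, the subunit of MuvB that binds the CHR, at -1.11 ± 0.06 and E2F5 at 1.70 ± 0.08. All 39 of 39 G1/S and replication genes fell (median -1.68, or -2.19), and so did 23 of 23 histone genes (median -2.298, or -3.54) and 29 of 29 ribosomal protein genes (median -0.47).

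**Figure D5:**
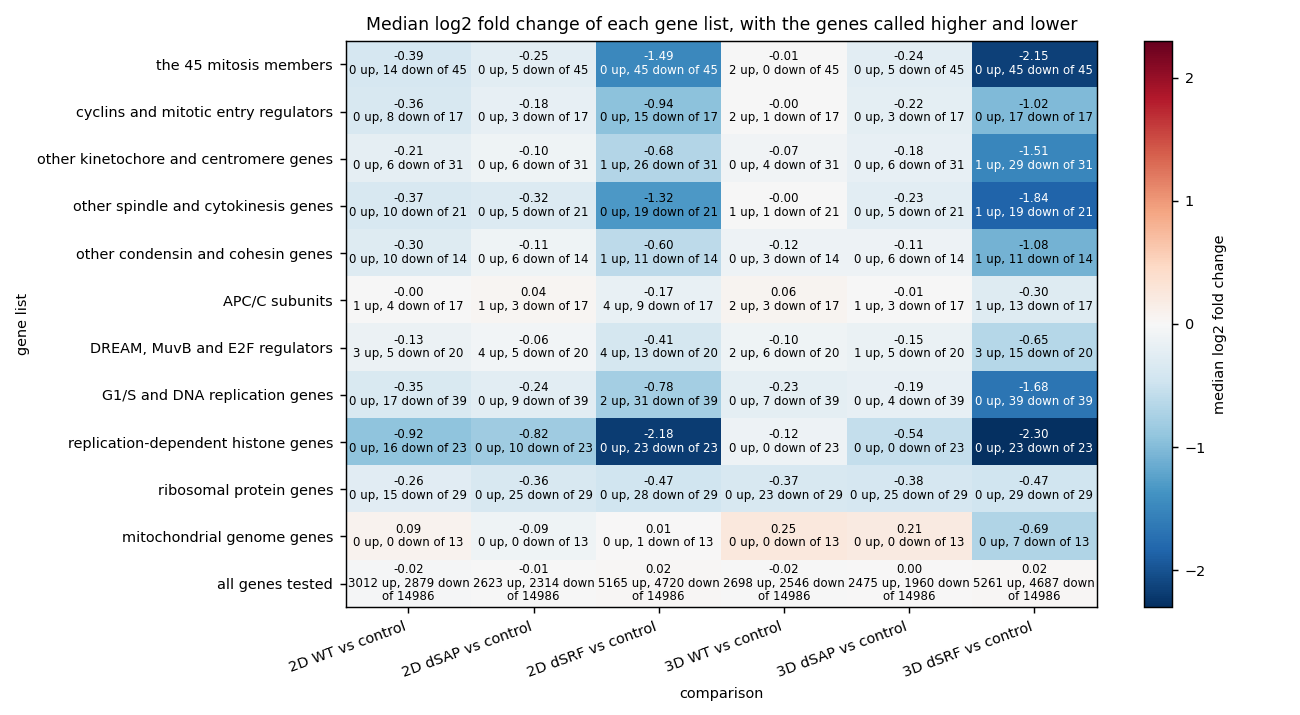
Median log2 fold change against control (colour and first number) of the 45 members, of other gene lists and of all genes tested, with the numbers of genes called higher and lower. The dSRF columns hold the lowest medians, down to -2.298 for histone genes in 3D.

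In 2D WT, where 19.2% of all genes tested were called lower, the lists named here had medians nearer to 0 than in 2D dSRF. Of the cyclins and regulators 8 of 17 fell (median -0.36), with CCNB2 at -0.65 and CDC25B, a phosphatase that activates CDK1, at -0.55. Kinetochore genes had 6 of 31 lower (median -0.21), near the share of all genes. Spindle genes had 10 of 21 lower (median -0.37), condensin and cohesin genes 10 of 14 (median -0.30), replication genes 17 of 39 (median -0.35) and histone genes 16 of 23 (median -0.92). None was higher in these lists. These counts depend on 1 library. When 3D dSRF 1 was left out (26.6% of genes lower), 13 of 17 cyclins and regulators, 16 of 21 spindle genes, 22 of 31 kinetochore genes, 14 of 14 condensin and cohesin genes, 31 of 39 replication genes and 23 of 23 histone genes fell, and 1 gene each rose among the cyclins and regulators, the spindle genes and the replication genes. CDKN1A rose (0.90 ± 0.11). In 3D WT 2 of the cyclins and regulators rose, CCNB1 (0.29) and ARPP19, a phosphatase inhibitor of mitotic entry (0.35), and 1 fell (CDC25B, -0.13). Replication genes had 7 of 39 lower. These counts were near or below the shares of all genes (18% higher, 17% lower). Of the cyclins and regulators 4 of 17 were higher and 3 lower without 3D dSRF 1, near or below the shares of all genes (23.8% higher, 24.3% lower). Of the replication genes 27 of 39 were lower. In dSAP, 3 of 17 cyclins and regulators and 5 of 21 spindle genes fell in 2D, with BORA, an activator of PLK1, at -0.55 and CKAP2 at -0.33. The same counts, 3 of 17 and 5 of 21, were found in 3D, with BORA at -0.44 and CKAP2 at -0.31. Of all genes tested 15.4% were called lower in 2D dSAP and 13.1% in 3D dSAP, so the 3 of 17 cyclins and regulators were near those shares. Leaving out 3D dSRF 1 gave 11 of 17 and 14 of 21 in 2D (23.3% of genes lower) and 10 of 17 and 15 of 21 in 3D (20.7%), and 1 cyclin or regulator rose in each.

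Per length of transcript, on the TPM scale, the highest members in 2D control were UBE2C (394 ± 13.9 TPM, mean ± SD, n = 3), ANLN (389 ± 21.9) and PTTG1 (347 ± 10.3), and the lowest CDC25C (23.5 ± 0.997) and HMMR (16.6 ± 1.57), a spindle-associated receptor of hyaluronan. UBE2C and ANLN do not differ beyond their spread. As a description, each member was correlated with the other members over the 24 libraries, with a median r of 0.982 and the lowest for CENPI (0.870). Over the 18 libraries without dSRF the median r was 0.791, and it was 0.0510 for ANLN and -0.162 for KIF14. The libraries form groups, so these values largely reflect differences between groups.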

How the data were processed

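RNA-seq libraries of MDA-MB-231 were analysed from the deposited tables, in 8 groups of 3 taken from the titles. Per the labels' protocols, libraries came from total RNA with ribosomal depletion, although the molecule field says polyA RNA. Per the submitters' processing notes, reads were checked with FastQC and quantified with Salmon (version 11.3 as written) on hg38. The annotation and strand setting are not given in the sources used here, so reads of a gene and of an antisense neighbour cannot be told apart. The authors deposited estimated counts and TPM per gene. Of the deposited estimated counts 26.3% were not whole and were rounded.

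Genes were kept with filterByExpr, scaled with TMM (factors 0.890 to 1.09) and fitted with edgeR 4.0.16 (quasi-likelihood, robust, 16 residual degrees of freedom, common coefficient of variation 13.1%) in R 4.3.3, with Benjamini-Hochberg adjustment over 14986 genes in each of 17 comparisons. TPM values as deposited were used for levels between genes and, as log2 with pseudocounts of 1 and 0.1, in limma 3.58.1 as alternatives. DESeq2 1.42.0 was another alternative, as were RLE scaling, all genes without the filter, a replicate block, only the libraries compared, and each library left out in turn. The model fit was tested on simulated data.

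Full statistics are given for the called member of lowest p in each of 7 roles of each comparison, and up to 3 called genes per other list may be named. The members, lists and alternatives were chosen with earlier results of these data known. Positions are from GENCODE 29 (GRCh38), and promoter sequences from RefSeq (GRCh38.p14). Other work was done in Python 3.11.15.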

Additional observations from a re-analysis of the deposited data

Results flagged for a closer look

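The effect of the WT line against control differed between 3D and 2D for 8 members in the interaction test of edgeR (Benjamini-Hochberg adjusted p under 0.05 over all genes tested), all higher in 3D. Named among them were KIF20A (1.11 on the log2 scale), AURKA (0.62), NCAPD2 (0.59), TPX2 (0.37) and CENPF (0.36). Of all genes tested 4.22% were called higher and 4.96% lower. The count of members ran from 3 with no filter (979 of 25708 genes) to 39 on only the libraries compared (3463 of 14112 genes). With 1 library left out it ran from 3 to 39.

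The effect of the dSRF line differed between cultures for 12 members in the same test, all lower in 3D. Named among them were CENPI (-1.48), TOP2A (-0.96), KIF20A (-0.86), BUB1B (-0.83) and NUSAP1 (-0.82). Of all genes tested 14.6% were called lower and 14.7% higher. The count of members ran from 2 on only the libraries compared (2642 of 14637 genes) to 24 on log2(TPM + 1) (3338 of 14986 genes). With 1 library left out it ran from 4 to 45.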

How the results depend on the processing

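The fall of the members in dSRF held under every setting tried: 43 to 45 of 45 were called against control or WT in either culture under the 7 other settings, and 42 to 45 with any library left out. Of 79 gene results, none reversed. Under the other settings 22 of them lost their call at least once, and with a library left out 19 did, while the 28 results of dSRF against control or WT kept it in all 378 values.

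Counts of members called moved as follows. With RLE size factors 2D dSAP against WT gave 2 and 3D dSAP against control 8 (1929 and 4479 of 14986 genes). DESeq2 gave 8 for 2D dSAP and 8 for 3D dSAP against control, and 3 for 2D dSAP against WT. Of all genes tested, it called 5037 of 14958, 4596 of 14380 and 2127 of 13803 there. With no filter, 3D WT against control gave 1, 3D dSAP against WT 2, WT in 3D against 2D 10, dSRF in 3D against 2D 16, and the interactions of WT 3 and of dSRF 4. Of 25708 genes, these comparisons called 4554, 1358, 6841, 1892, 979 and 3603. On log2(TPM + 1), 2D WT against control gave 24, 2D dSAP against WT 6, 3D WT against control 1, 3D dSAP against WT 1, WT in 3D against 2D 25, dSAP in 3D against 2D 10, and the interactions of WT 5 and of dSRF 24. On log2(TPM + 0.1) the same comparisons gave 24, 5, 1, 0, 24, 10, 5 and 24. Of 14986 genes, these 8 comparisons called 5232, 1859, 4341, 1630, 6500, 6157, 909 and 3338 on log2(TPM + 1). On log2(TPM + 0.1) they called 5305, 1818, 4285, 1538, 6541, 6141, 870 and 3240. Fitted on only the libraries compared, 2D WT gave 40, 2D dSAP 33, 3D WT 23 and 3D dSAP 36 against control. Of all genes tested there, 7614 of 13523, 6548 of 13566, 6872 of 13748 and 6395 of 13756 were called. In such fits dSAP against WT gave 24 in 2D and 42 in 3D (4288 of 13467 and 4607 of 13802 genes). For 3D against 2D the counts were 31 in control, 38 in WT, 32 in dSAP and 0 in dSRF. The genes called were 8171 of 13622, 9305 of 13616, 8817 of 13758 and 0 of 14117. The interactions of WT, dSAP and dSRF then gave 39, 3 and 2 (3463 of 14112, 1400 of 14170 and 2642 of 14637 genes). The cause of these moves was not tested.

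With 1 library left out the counts ranged from 10 to 38 in 2D WT, 5 to 33 in 2D dSAP, 44 to 45 in 2D dSRF, 1 to 24 in 3D WT, 2 to 34 in 3D dSAP and 45 to 45 in 3D dSRF against control. Against WT they ranged from 0 to 23 in 2D dSAP, 42 to 45 in 2D dSRF, 0 to 41 in 3D dSAP and 45 to 45 in 3D dSRF. For 3D against 2D they ranged from 4 to 33 in control, 9 to 37 in WT, 4 to 32 in dSAP and 12 to 44 in dSRF, and for the interactions from 3 to 39 for WT, 0 to 5 for dSAP and 4 to 45 for dSRF. Each highest count of the comparisons that moved by over 1.5 times upwards was that without 3D dSRF 1, and the libraries that lowered a count are named beside the results. Shares of all genes called without 3D dSRF 1 follow. Against control they were 51.9% (2D WT), 47.1% (2D dSAP), 48.1% (3D WT) and 44% (3D dSAP). For dSAP against WT they were 27.7% in 2D and 27.2% in 3D. For 3D against 2D they were 58.6% in control, 60.8% in WT, 59.3% in dSAP and 48.2% in dSRF. For the interactions they were 23.8% (WT), 11.4% (dSAP) and 43.8% (dSRF). Shares of all genes with any other library left out are not given here, so those counts describe the members only.

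On log2(TPM + 1) the share of all called genes that were higher moved by over 10 points: from 51.1% to 37.8% in 2D WT and from 51.4% to 41.4% in 3D WT against control, from 39.8% to 75.5% in 2D dSAP, 45.1% to 69% in 3D dSAP and 52.5% to 66.8% in 2D dSRF against WT, and for 3D against 2D from 48.6% to 62.2% in control, 48.7% to 63.8% in WT and 50.7% to 64% in dSAP. The median of all genes moved furthest in 2D dSRF against WT, from 0.03 to 0.18.

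Replicate numbers did not pair the libraries: same-numbered deviations correlated at -0.131 to 0.108, all pairs were over 0.1 in 0 of 14 comparisons, and 1 of 24 libraries correlated best with its own number. With replicate as a block, the counts were 14 in 2D WT, 2 in 3D WT, 4 in 3D dSAP against control, 3 in 3D dSAP against WT, 28 for dSRF in 3D against 2D, and 7 and 11 for the interactions of WT and dSRF, and no count moved by over 1.5 times. Of 14986 genes, these comparisons called 5777, 5089, 4261, 1693, 2362, 1268 and 4203. Low counts limit SPC25 most, at 0.641 CPM in 1 library.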
